A study of Mus musculus with 18 samples.

Results

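The BCL2 family of apoptosis regulators was followed across sorted mouse skin cells through its core members Bcl2, Bcl2l1, Mcl1, Bax, Bak1, Bid, Bcl2l11, Bbc3 and Pmaip1. Members were the genes of this family, and every probe set of the array whose only annotated gene symbol was one of these 9 names was taken. This gave 27 probe sets for 8 members, of 45101 probe sets and 18193 genes in all. Bax was not analysed here. Of the 27 probe sets, 23 were brighter than their array's median on 3 or more arrays and were tested. The other 4 were 1 of 4 for Bcl2l1, 1 of 5 for Bcl2l11 and 2 of 3 for Bid.

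BCL2 proteins decide whether the outer mitochondrial membrane is opened to release cytochrome c, which starts the caspase cascade. Survival members (Bcl2, Bcl2l1, which encodes BCL-XL, and Mcl1) hold the pore-forming members Bax and Bak1 in check, and the BH3-only members (Bid, Bcl2l11 or BIM, Bbc3 or PUMA, and Pmaip1 or NOXA) either block the survival members or activate the pore formers. Pmaip1 and Bbc3 are known as targets of p53, and NOXA binds mainly MCL1. In skin the family is known for its part in the regression of the hair follicle, during which most of the lower follicle dies while the bulge, the niche of the stem cells, persists.

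All 18 arrays came from K5tTA x pTRE-H2B-GFP mice (FvB and CD1 parents), in which the keratin 5 promoter drives a histone H2B-GFP label that doxycycline represses, so that label exists only in cells with keratin 5 promoter activity. All mice received doxycycline, at 1 g per kg of food, from postnatal day (PD) 18 until collection at PD21 or from PD22 until PD25, and no array held cells of an untreated mouse. Surface CD34 and α6-integrin separated bulge from non-bulge cells. Bulge cells were further split by retained GFP, which each division dilutes 2-fold, into an undivided fraction (0 divisions) and a divided fraction (1 to 2 divisions). The 6 groups (non-bulge, undivided bulge and divided bulge at each age) held 3 arrays each, so that 3 mice of an age gave all 3 of its fractions and other mice those of the other age.

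Values are array signals on the log2(signal + 16) scale, so differences of dim genes are understated. Signals of different probe sets were compared only to choose the brightest of a gene and in the alternative that took their median. The arrays shared a trimmed mean of 500 but fell into 2 sets of 9 by untrimmed mean signal, 811 to 869 (PD21 mice 1 and 2 and PD25 mouse 1) and 667 to 731 (PD21 mouse 3 and PD25 mice 2 and 3). The labels give no basis for these sets, Gapdh 3′ to 5′ ratios were 4.57 to 11.6 and 3.10 to 9.67 in them, and values within each set stand beside the main differences of the members but are not given for the wider gene lists. The labelled fractions were checked on 11 bulge markers, which include the sorting markers Cd34 and Itga6, and 8 of them were higher in undivided than in non-bulge cells, at each age. Their mean log2 level was 8.21 to 8.75 in non-bulge arrays, 11.27 to 11.85 in undivided bulge and 11.22 to 11.84 in divided bulge at PD25, but 9.50 to 9.96 in divided bulge at PD21. Cd34 averaged 8.93 in that last fraction, 12.73 in undivided bulge and 4.52 in non-bulge cells of the same mice, so the PD21 divided fraction lay between the others in the markers of its label.

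Across the family, Pmaip1 separated the fractions most, Bcl2 opposed it with smaller differences, Bak1 passed in 1 comparison and the other 5 tested members in none. At PD21, undivided bulge cells had less Pmaip1 (-3.82 ± 0.53, SE) and Bak1 (-1.57 ± 0.46) and more Bcl2 (0.92 ± 0.26) than non-bulge cells. These 3 of 8 members passed an adjusted p of 0.05 in the limma fit over 11569 genes, of which 11.0% passed in that comparison. At PD25, 2 of 8 members passed in undivided bulge against non-bulge (10.5% of genes) and 2 of 8 in divided bulge against non-bulge (8.87% of genes), Pmaip1 lower and Bcl2 higher each time. At PD21, 0 of 8 passed in divided bulge against non-bulge (0.182% of genes), and 2 of 8 passed in divided against undivided bulge (8.28% of genes), with Pmaip1 higher and Bcl2 lower in the divided cells. In divided against undivided bulge at PD25, 0 of 8 members and 0.0% of genes passed, and 0 members and 635 of 11569 genes had an unadjusted p under 0.05. At PD21 that unadjusted level held for 6 members and 2302 genes in this contrast. Against non-bulge it held in undivided bulge for 4 members and 2603 genes at PD21 and 3 and 2353 at PD25. In divided bulge against non-bulge the counts were 0 and 487 at PD21 and 2 and 2110 at PD25.

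Between the ages, 2 of 8 members passed in divided bulge (7.84% of genes), Pmaip1 lower and Bcl2 higher at PD25. In undivided bulge 0 of 8 passed (0.0951% of genes), with 1 member and 929 of 11569 genes at an unadjusted p under 0.05. The count was also 0 of 8 in non-bulge cells (0.0432% of genes), with 1 member and 511 of 11569 genes at that unadjusted level. In divided bulge 3 members and 2064 genes were at that level. The difference between the ages in the divided minus undivided contrast was past the threshold for 1 of 8 members, Pmaip1, and for 1.18% of genes. The typical size of a member's difference, as the median absolute log2 difference, was 1.06 in undivided bulge against non-bulge at PD21 beside 0.42 over all genes, and 1.15 beside 0.38 in divided against undivided bulge at PD21. At PD25 it was 0.62 beside 0.37 and 0.26 beside 0.25 in these contrasts. An unsigned median takes in noise, and the dim Bid and Bbc3, with SEs of 0.60 and 0.72, passed in none of these contrasts. The members' signed medians were 0.11 and -0.34 at PD21, beside -0.05 and 0.07 over all genes, since members moved both ways. Comparisons of an age share samples, so their counts are not independent.

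**Figure D1:**
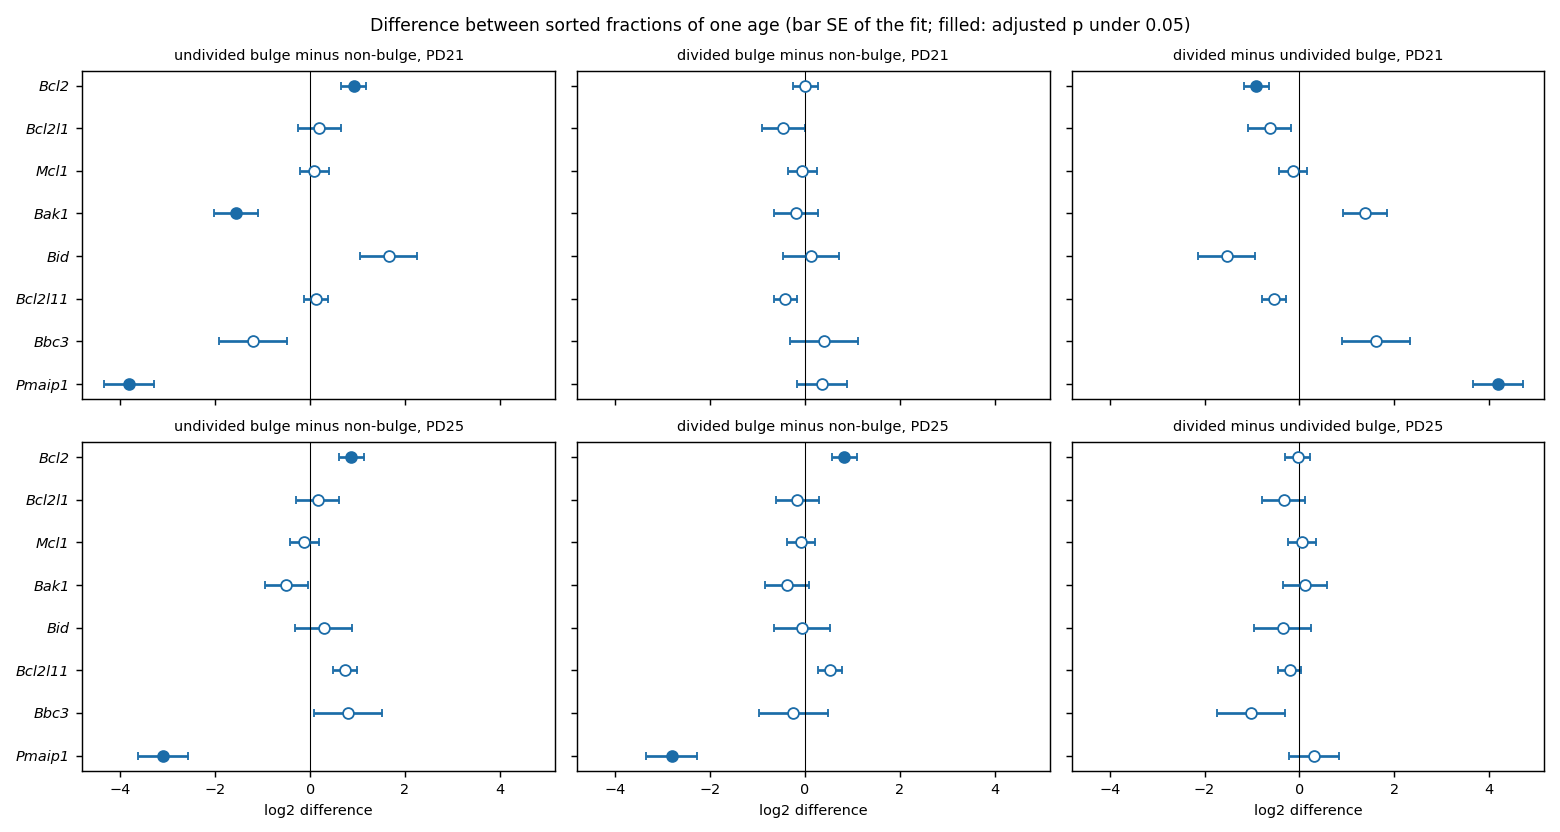
Log2 difference of each member (x axis, log2 units, bar SE of the fit over 18 arrays) for undivided bulge against non-bulge, divided bulge against non-bulge and divided against undivided bulge, at PD21 (top) and PD25 (bottom). Filled points passed an adjusted p of 0.05: Pmaip1 and Bcl2 in 4 panels each, Bak1 in 1.

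Among the survival members, Bcl2 was the one that differed between fractions. Bcl2 encodes the founding survival protein of the family. Its promoter is shown because Bcl2 was the survival member past the threshold. The sequence is the 250 bases before the RefSeq start on the minus strand of GRCm38.p6, chr1:106714291-106714540, 5′ to 3′, with the GC box GGGCGG, read on both strands, in capitals.
Bcl2 promoter: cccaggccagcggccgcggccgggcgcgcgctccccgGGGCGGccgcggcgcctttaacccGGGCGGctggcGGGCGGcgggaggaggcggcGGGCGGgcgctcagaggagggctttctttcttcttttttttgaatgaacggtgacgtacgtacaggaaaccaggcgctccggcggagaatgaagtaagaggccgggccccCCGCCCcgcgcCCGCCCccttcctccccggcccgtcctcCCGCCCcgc
This window held 7 GC boxes, and 32.7% of 32851 promoter windows of that length held at least 1. The motif searches also covered TGTGGT (the RUNX core), TGANTCA (AP-1), TTTCCCGC (E2F) and the p53 half-site on both strands, present in 14.05%, 6.75%, 0.895% and 7.13% of windows, and none was in the Bcl2 window. Of the 8 members, 7 had promoter entries, and TGANTCA, TTTCCCGC and the p53 half-site were in none of their windows. Pmaip1 had no promoter entry, so its promoter was not searched for any motif. A match describes letters, not a site in use.

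Bcl2 signals at PD21 were 11.66, 12.05 and 11.92 in non-bulge cells of mice 1 to 3 (mean 11.88 ± 0.20, SD, n = 3), 12.81, 12.92 and 12.67 in undivided bulge (12.80 ± 0.13) and 11.30, 12.12 and 12.24 in divided bulge (11.89 ± 0.51). At PD25 they were 12.48, 11.87 and 12.05 in non-bulge (12.13 ± 0.31), 13.29, 12.92 and 12.80 in undivided bulge (13.00 ± 0.26) and 13.16, 13.05 and 12.68 in divided bulge (12.96 ± 0.25). Every undivided array thus lay above every non-bulge array of its age, as did the PD25 divided arrays, while the PD21 divided arrays overlapped the non-bulge ones and mouse 1 was the lowest of all 18. Ordered by mean, the groups ran from non-bulge and divided bulge at PD21 through non-bulge at PD25 to the other 3, and the step from non-bulge at PD25 to undivided bulge at PD21 (0.67) was the only one between neighbours whose arrays did not overlap.

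Bcl2 was 1.90-fold higher in undivided than in non-bulge cells, at PD21 (0.92 ± 0.26, adjusted p = 0.0193) and 1.82-fold higher at PD25 (0.87 ± 0.26, adjusted p = 0.0289), in 6 of 6 mice. Divided bulge differed from non-bulge by 0.83 ± 0.26 at PD25 (adjusted p = 0.0440), but by 0.01 ± 0.26 at PD21 (95% interval -0.52 to 0.54). At PD21 Bcl2 fell by 0.91 ± 0.26 from undivided to divided bulge (adjusted p = 0.0268), in 3 of 3 mice. The corresponding difference at PD25 was -0.04 (95% interval -0.57 to 0.50). The change of this contrast between the ages was 0.88 ± 0.36, with an adjusted p of 0.280, and 0.0460 with the mouse as a block. In divided bulge, Bcl2 was 2.11-fold higher at PD25 than at PD21 (1.08 ± 0.26, adjusted p = 0.00917). In bulk RNA, fewer cells of a type and less RNA per cell cannot be told apart, here and for the members below.

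These Bcl2 differences rested on the brightest of 5 probe sets (group means 11.88 to 13.00), and the 5 did not move alike. The next brightest (9.79 to 11.13) had the direction of the brightest in all 5 calls. It passed in both bulge fractions against non-bulge at PD25, but not in the other calls. Its values were -0.58 ± 0.29 in divided against undivided bulge at PD21 and 0.78 ± 0.29 between the ages in divided bulge. The rest were dimmer (6.44 to 8.90), with SEs of 0.53 to 0.64. In undivided bulge against non-bulge at PD21 the 5 gave 0.92, 0.80, 0.41, 0.18 and -0.62. In the probe set fit 3 of the 23 tested member probe sets passed there (8.71% of 26938), 1 of them for Bcl2. At PD25 all 5 were positive, from 0.45 to 1.33, and 4 of 23 passed (8.19% of probe sets), 2 of them for Bcl2. In divided bulge against non-bulge at PD25, 3 of 23 passed (6.23%), and the one for Bcl2 was another probe set (1.32 ± 0.29, adjusted p = 0.00502), with 0.0609 for the brightest. With the median of a gene's probe sets in place of the brightest, the Bcl2 difference was -0.17 in undivided bulge against non-bulge at PD21, -0.16 in divided bulge against non-bulge at PD25 and -0.36 between the ages in divided bulge, with adjusted p of 0.882, 0.937 and 0.814. Under the same setting divided minus undivided bulge at PD21 was -0.02 (adjusted p = 0.991), in place of -0.91, and undivided bulge minus non-bulge at PD25 was 0.64 (adjusted p = 0.557). So none of the 5 Bcl2 calls held with the median of its probe sets. That median was taken over the signals of each array, and the probe set in the middle differed between arrays. Taken singly, all 5 probe sets were positive between the ages in divided bulge, from 0.05 to 1.08. Without the variance trend the divided minus undivided call at PD21 was also lost (adjusted p = 0.0570), as were both against non-bulge at PD25 (0.0621 for undivided and 0.0883 for divided bulge).

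Single arrays also bore on Bcl2. Its call in undivided bulge against non-bulge was lost at PD21 without non-bulge mouse 1 or undivided mouse 1 or 2 (adjusted p of 0.101, 0.0591 and 0.0699), and at PD25 without non-bulge mouse 2 or 3 or undivided mouse 1 or 2 (0.127, 0.0950, 0.155 and 0.0634), with differences from 0.72 to 0.92. In divided against undivided bulge at PD21 it was lost without undivided mouse 1 or 2 (-0.91 and -0.85) or divided mouse 1 (-0.62, adjusted p = 0.212). For divided bulge against non-bulge at PD25 it was lost without non-bulge mouse 2 or 3 or divided mouse 1 or 2 (0.70 to 0.79), and between the ages in divided bulge without PD21 mouse 1 (0.79, adjusted p = 0.100). Within the arrays of high and low mean signal, undivided bulge minus non-bulge was 1.01 and 0.74 at PD21 and 0.81 and 0.90 at PD25, and divided minus undivided bulge at PD21 was -1.15 and -0.43. Divided bulge minus non-bulge at PD25 was 0.68 and 0.91, and the age difference in divided bulge was 1.45 and 0.63. Within a set some groups held 1 array, whose spread was taken to be that of the others.

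**Figure D2:**
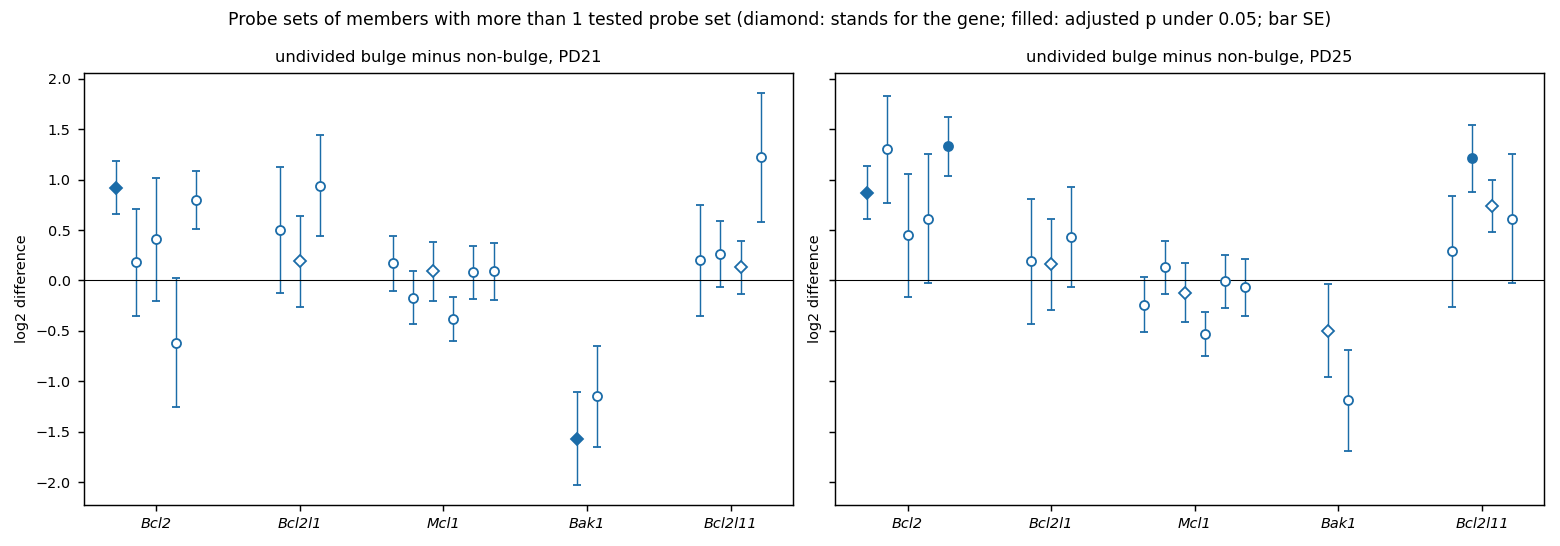
Log2 difference (y axis, bar SE) between undivided bulge and non-bulge cells at PD21 (left) and PD25 (right) for each tested probe set of the 5 members with more than 1. Diamonds stand for the gene in the gene fit and filled symbols passed an adjusted p of 0.05 in the probe set fit. The Bcl2 probe sets spread from -0.62 to 0.92 at PD21, while both Bak1 probe sets lie below 0 in both panels.

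Bcl2l1 and Mcl1, the other survival genes, passed in no comparison. Bcl2l1 group means ran from 7.90 in divided bulge at PD21, where mouse 1 at 6.85 stood below mice 2 and 3 at 8.46 and 8.40, to 8.54 in undivided bulge at PD21. With the brightest of its 3 tested probe sets, its largest difference between fractions of an age was -0.63 ± 0.45 in divided against undivided bulge at PD21 (adjusted p = 0.496, 95% interval -1.57 to 0.30), and -1.06 and 0.21 within the arrays of high and low mean signal. The 3 Bcl2l1 probe sets did not move alike: in divided bulge against non-bulge at PD21 they gave -0.45, 0.82 and 1.01, with an SE of 0.50 for the last and an unadjusted p of 0.0560. Mcl1, whose short-lived protein is the main partner of NOXA, had group means from 13.24 to 13.50, and all neighbouring groups in that order overlapped, as they did for Bcl2l1. The brightest Mcl1 probe set differed by at most 0.14 ± 0.30 in size between fractions of an age, with 95% intervals reaching from -0.75 to 0.70. Over its 6 probe sets, differences between fractions of an age ran from -0.53 to 0.17. The lowest was that of undivided bulge against non-bulge at PD25 (SE 0.22, unadjusted p = 0.0229), and none of the 6 passed in any comparison.

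Bak1, which encodes a pore former of the outer mitochondrial membrane, had its lowest signals in undivided bulge at PD21. Its promoter is shown because, of the member windows searched, it alone held the RUNX core TGTGGT, 221 bases before the start. It is the 250 bases before the RefSeq start on the minus strand of GRCm38.p6, chr17:27028628-27028877, 5′ to 3′, with that motif in capitals.
Bak1 promoter: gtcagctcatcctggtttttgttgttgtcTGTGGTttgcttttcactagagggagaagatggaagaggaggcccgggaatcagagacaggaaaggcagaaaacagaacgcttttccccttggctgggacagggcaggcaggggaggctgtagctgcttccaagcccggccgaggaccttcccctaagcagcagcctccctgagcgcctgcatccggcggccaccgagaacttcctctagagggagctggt
Unlike the Bcl2 window, it held 0 GC boxes.

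At PD21 Bak1 signals were 7.95, 8.62 and 7.50 in non-bulge cells (8.02 ± 0.56, SD, n = 3), 6.46, 6.29 and 6.61 in undivided bulge (6.45 ± 0.16) and 7.89, 7.83 and 7.78 in divided bulge (7.83 ± 0.05). At PD25 the non-bulge arrays gave 7.86, 9.29 and 8.04 (8.40 ± 0.78), undivided bulge 7.71, 7.74 and 8.25 (7.90 ± 0.31) and divided bulge 7.76, 7.97 and 8.32 (8.02 ± 0.28). The 3 undivided arrays at PD21 were below all other arrays, and the other 5 groups overlapped their neighbours in the order of means.

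Bak1 was lower in undivided bulge relative to non-bulge cells at PD21 (-1.57 ± 0.46, adjusted p = 0.0256), by -1.75 with a pseudocount of 1 and -1.19 with 64, and 1 of its 3 undivided arrays there exceeded the median of its array. The Bak1 difference at PD25 was -0.50 ± 0.46 (95% interval -1.44 to 0.45). Its level was 1.38 ± 0.46 higher in divided than in undivided bulge at PD21, with an adjusted p of 0.0649, but from 0.0246 to 0.0382 with the mouse as a block (0.0369), the array set as a term, no variance trend or the median of probe sets. Divided cells exceeded undivided cells of the same mouse in 6 of 6 mice, though by 0.12 ± 0.46 on average at PD25. The change of that contrast between the ages (-1.26 ± 0.65, adjusted p = 0.431) and the rise of undivided bulge from PD21 to PD25 (1.45 ± 0.46, adjusted p = 0.286) did not pass. A second Bak1 probe set gave -1.15 and -1.19 for undivided bulge against non-bulge at PD21 and PD25, with adjusted p of 0.177 and 0.180. The PD21 call was lost under quantile normalisation (-1.33, adjusted p = 0.0552), with only the groups compared (adjusted p = 0.0964), without non-bulge mouse 1 or 2 or undivided mouse 1 or 2 (-1.60, -1.27, -1.57 and -1.49, adjusted p from 0.0620 to 0.138), and within both array sets (-1.91 and -0.89). In the same 3 undivided arrays the 8 dividing-cell markers averaged 9.41 to 10.24, against 10.27 to 10.40 in non-bulge and 10.21 to 10.70 in divided bulge at PD21, and 0 of these 8 passed against non-bulge. Of the 8, the cyclin gene Ccnb2 alone was higher in divided than in undivided bulge at PD21 (1.36 ± 0.40, adjusted p = 0.0322), and their median there was 0.68. In undivided bulge at PD25 the 8 averaged 11.01 to 11.12, above every PD21 array, with a median difference of 1.35 from PD21 and 0 past the threshold. At PD25 they averaged 10.08 to 10.66 in non-bulge and 9.72 to 11.19 in divided bulge. Their PD25 median was 0.70 for undivided bulge minus non-bulge, with 0 past the threshold. For divided minus undivided bulge it was -0.67, opposite in sign to PD21, also with 0 past the threshold. The part of these markers in the Bak1 differences was not tested.

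The BH3-only members differed from one another. Pmaip1 carried the clearest pattern, Bid and Bcl2l11 passed in no comparison but had differences that passed under some alternatives, and Bbc3 passed in none.

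Pmaip1 encodes NOXA, a sensitiser that neutralises MCL1. It had 1 probe set, so no other could be set beside it. At PD21 its signals were 9.54, 8.42 and 8.68 in non-bulge cells (8.88 ± 0.59, SD, n = 3), 4.08, 5.97 and 5.15 in undivided bulge (5.06 ± 0.95) and 9.31, 9.43 and 9.0 in divided bulge (9.25 ± 0.22). At PD25 they were 8.96, 10.06 and 8.66 in non-bulge cells (9.22 ± 0.74), 6.34, 6.02 and 5.98 in undivided bulge (6.11 ± 0.20) and 6.38, 6.97 and 5.90 in divided bulge (6.42 ± 0.53). The 2 non-bulge groups and divided bulge at PD21 were all at 8.42 or above, and undivided bulge at both ages and divided bulge at PD25 were all at 6.97 or below. The dim groups approached the floor of the scale: on the linear scale the undivided arrays at PD21 gave signals of 0.9, 46.5 and 19.5, and the probe set exceeded the median of its array in 10 of 18 arrays. In the order of means, arrays did not overlap between undivided bulge at PD21 and at PD25 (a step of 1.05) or between divided bulge at PD25 and non-bulge at PD21 (2.46), and the other neighbours overlapped.

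**Figure D3:**
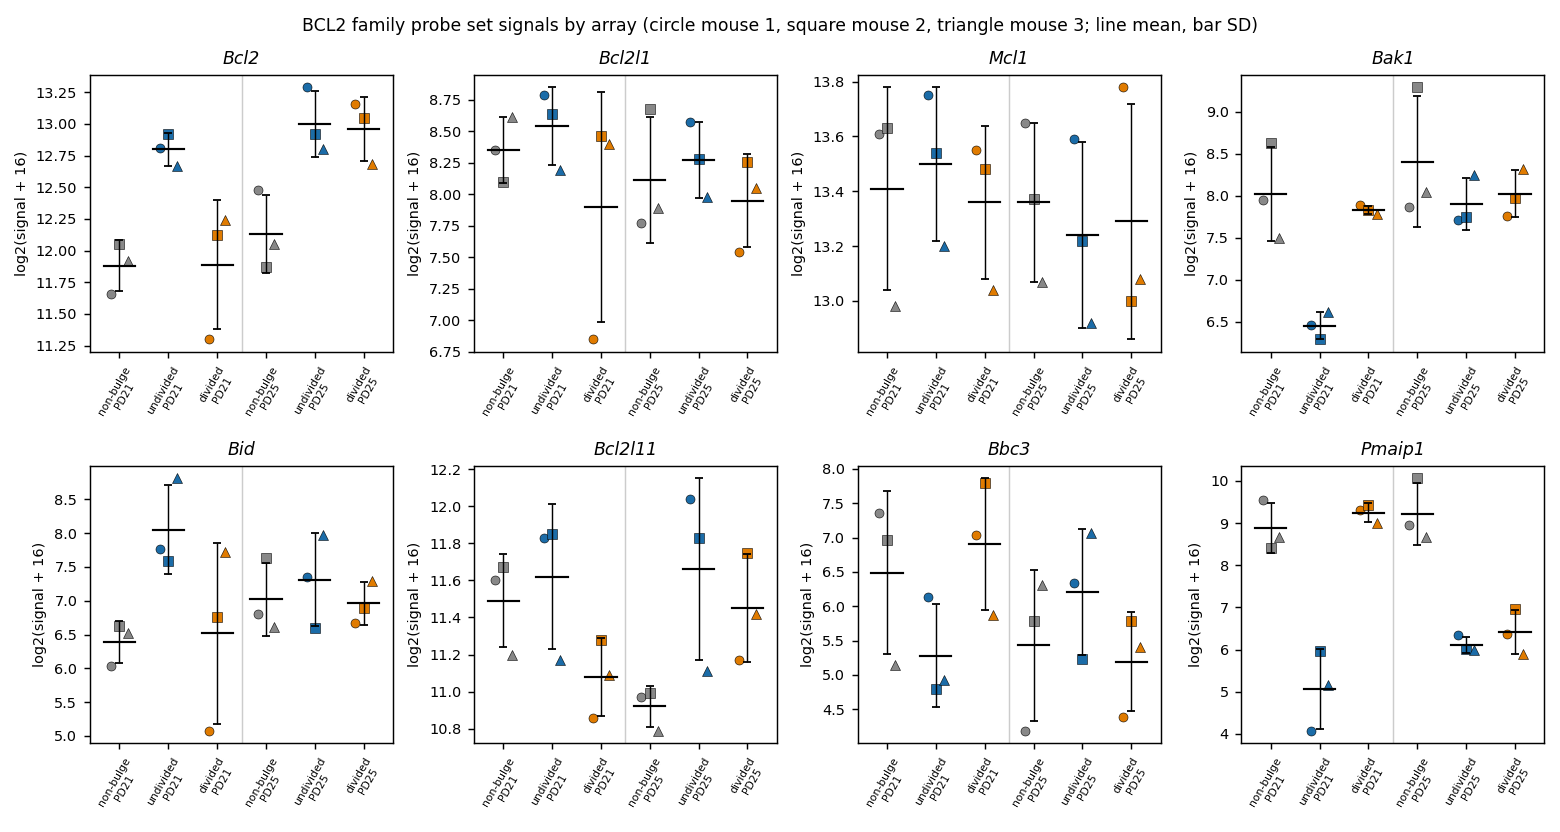
Signal of each member's gene-level probe set on every array (y axis, log2(signal + 16)), by sorted fraction and age, with the mean as a line and the SD of 3 mice as a bar. Pmaip1 splits into groups at 8.42 and above and groups at 6.97 and below, Bak1 is lowest in undivided bulge at PD21, and Mcl1 spans 12.92 to 13.78 with no separation.

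Pmaip1 was lower in undivided bulge relative to non-bulge cells at PD21 (-3.82 ± 0.53, adjusted p = 1.88e-05) and at PD25 (-3.11 ± 0.53, adjusted p = 0.000208), in 6 of 6 mice. Divided bulge was lower than non-bulge at PD25 (-2.81 ± 0.53, adjusted p = 0.000866), and differed by 0.36 ± 0.53 at PD21 (95% interval -0.74 to 1.47). Accordingly, divided bulge exceeded undivided bulge at PD21 (4.18 ± 0.53, adjusted p = 1.79e-05), in 3 of 3 mice, while the contrast at PD25 was 0.31 ± 0.53 (95% interval -0.80 to 1.41). The test of that change between the ages gave -3.87 ± 0.75 (adjusted p = 0.0100). Between PD21 and PD25, Pmaip1 in divided bulge fell (-2.83 ± 0.53, adjusted p = 0.00122), and the differences in undivided bulge (1.05 ± 0.53, adjusted p = 0.664) and in non-bulge cells (0.34 ± 0.53, adjusted p = 0.998) did not pass. Sizes against the dim groups depend on the pseudocount: with 1 and with 64 in place of 16, undivided bulge minus non-bulge at PD21 was -5.21 and -2.63, divided minus undivided bulge at PD21 was 5.59 and 2.96, and the calls held. Only 1 of the 9 arrays of the 3 dim groups exceeded its array's median, so bounds were taken with each such array at that median where its own signal was lower. These bounds, added after the data were seen, are for the group means observed and carry no sampling error. They put undivided bulge at least 5.11-fold below non-bulge at PD21 and at least 6.22-fold at PD25. Divided bulge was at least 5.58-fold below non-bulge at PD25. At PD21 it was at least 6.58-fold above undivided bulge and at least 5.66-fold above divided bulge at PD25. In the probe set fit it was 1 of the 2 member probe sets that passed in divided against undivided bulge at PD21 (6.01% of probe sets) and of the 2 between the ages in divided bulge (5.42%), the other being the brightest of Bcl2 in both.

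The Pmaip1 differences kept their direction within the arrays of high and low mean signal: -3.96 and -3.53 for undivided bulge against non-bulge at PD21, -2.62 and -3.36 at PD25, -2.58 and -2.92 for divided bulge against non-bulge at PD25, and 4.34 and 3.85 for divided against undivided bulge at PD21. In the high-mean arrays the adjusted p of the 2 PD25 differences was 0.192 and 0.232. The age difference in divided bulge was -2.99 and -2.56, and that of the contrast -4.30 and -3.41, with adjusted p from 0.0673 to 0.339 inside the sets. Leaving out any 1 array changed none of the 6 Pmaip1 calls.

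Bulge markers ran in the direction of Bcl2 and opposite to Pmaip1. The arrays with the lowest bulge marker means (8.21 to 8.75, non-bulge) and the intermediate ones (9.50 to 9.96, divided bulge at PD21) were those with high Pmaip1, and the 9 arrays at 11.22 or above had low Pmaip1 and, at 12.67 or above, high Bcl2. In divided against undivided bulge at PD21, 7 of 11 bulge markers were lower and 0 higher, with a median of -2.17, and in divided bulge 8 of 11 were higher at PD25 than at PD21. In the change of the divided minus undivided contrast between the ages, where Pmaip1 passed too, 6 of 11 bulge markers were higher and 0 lower, with a median of 2.19. In PD21 divided bulge, Pmaip1 overlapped the non-bulge arrays. The bulge marker means of that fraction lay between those of non-bulge cells and undivided bulge, and 4 of 11 markers were higher than in non-bulge cells. Sebaceous markers moved too: 4 of 5 were lower in undivided than in non-bulge cells at PD21 and 3 of 5 higher in divided than in undivided bulge, with summed signals of 21993 to 28660 in non-bulge, 7946 to 12055 in undivided and 16956 to 25852 in divided bulge at PD21. At PD25, where Pmaip1 was also lower in undivided bulge, 1 of the 5 (Mgst1) was lower there against non-bulge, with a median of -0.19, and 0 passed between the bulge fractions. The part of these markers in the member differences was not tested.

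**Figure D4:**
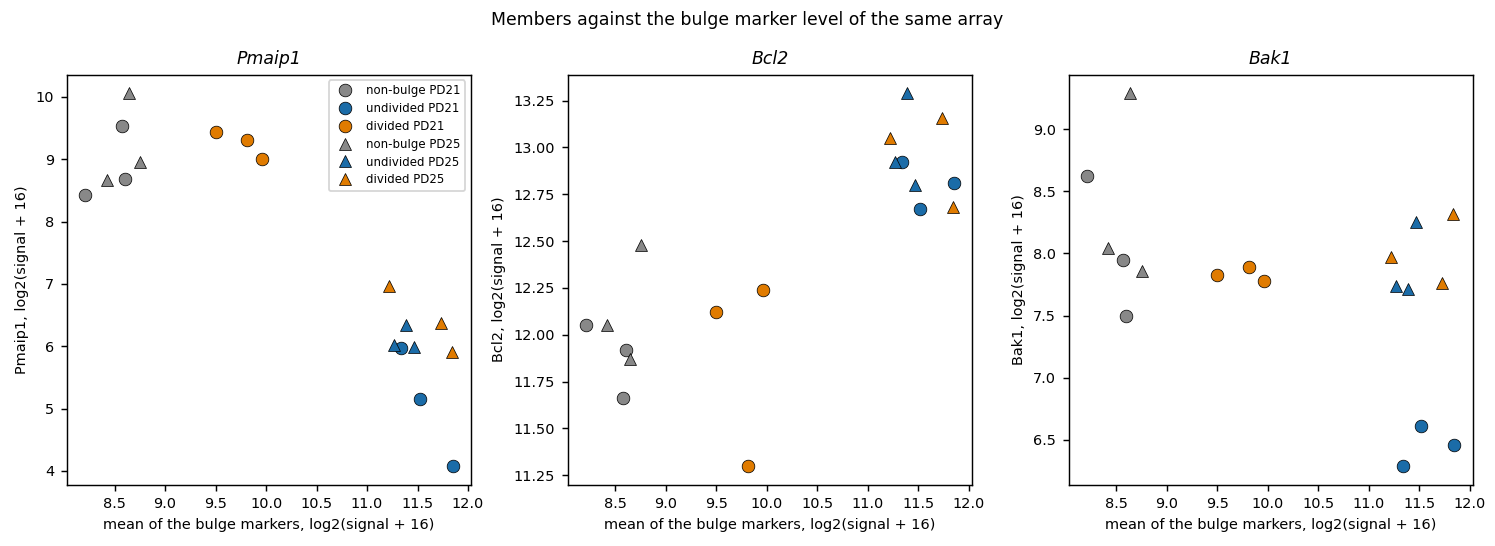
Pmaip1, Bcl2 and Bak1 (y axes, log2(signal + 16)) against the mean of 11 bulge markers on the same array (x axis, same scale), coloured by fraction and shaped by age. The 3 PD21 divided arrays sit between 9.50 and 9.96 on the x axis with Pmaip1 at 9.0 to 9.43, beside the non-bulge arrays.

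Lists of other cell types in skin were counted too. All 5 endothelial markers failed the filter, with summed signals of 20 to 228 over all arrays, and no immune or erythroid marker passed in any fraction comparison. Of 3 tested dermal fibroblast markers, 3 were higher in PD25 divided bulge than in non-bulge cells of that age (summed signals 1206 to 2660 against 174 to 546, with Pdgfra and Lum below the array median in every such divided array). Of the same 3, Col1a1 was higher against non-bulge in undivided bulge at both ages and in divided bulge at PD21, and Col3a1 was higher in divided than in undivided bulge at PD21 (median of the 3, 1.93), with summed signals of 202 to 256 in non-bulge, 793 to 1158 in undivided and 674 to 1723 in divided bulge at PD21. Of 3 tested melanocyte markers, 2 (Mitf and Dct) were higher in either bulge fraction at PD25. At PD21 Mitf was lower in non-bulge and in divided bulge than in undivided bulge. Of 2 tested muscle markers, Tagln was lower in undivided bulge against non-bulge at PD21. The basal keratinocyte marker Itgb4 was lower in both other fractions than in undivided bulge at PD21. The 1 tested Merkel marker was higher in undivided bulge against non-bulge at both ages, and of 8 interfollicular and upper follicle markers 1 was lower there at PD21 and 2 at PD25. Of these, Ly6d was also higher in divided than in undivided bulge at PD21, and lower in divided bulge at PD25 than at PD21 and than in non-bulge. Their part in the Bcl2 and Pmaip1 differences of those comparisons was not tested.

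Bid, which caspase-8 cleaves to link death receptors to mitochondria, was brightest in undivided bulge at PD21. Its arrays there gave 7.76, 7.59 and 8.81 (8.05 ± 0.66, SD, n = 3), against 6.03, 6.62 and 6.52 in non-bulge cells (6.39 ± 0.31) and 5.08, 6.76 and 7.72 in divided bulge (6.52 ± 1.34). Undivided and non-bulge arrays did not overlap, but the divided arrays spread across both. The undivided minus non-bulge difference was 1.66 ± 0.60, with an adjusted p of 0.0811, but 0.0332 with the mouse as a block, 0.0293 under quantile normalisation and 0.0373 with the array set as a term. Within the arrays of high and low mean signal it was 1.35 and 2.30. Divided minus undivided bulge was -1.53 ± 0.60 (adjusted p = 0.133), and -2.13 without divided mouse 3 (adjusted p = 0.0357). At PD25 the group means lay between 6.96 and 7.31 and every pair of fractions overlapped.

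Bcl2l11 encodes BIM, which binds all survival members. At PD25 it gave 10.97, 10.99 and 10.79 in non-bulge cells (10.92 ± 0.11, SD, n = 3), 12.04, 11.83 and 11.11 in undivided bulge (11.66 ± 0.49) and 11.17, 11.75 and 11.42 in divided bulge (11.45 ± 0.29). Both bulge fractions lay above all non-bulge arrays, while at PD21 the means of 11.49, 11.62 and 11.08 went with overlapping arrays. The PD25 difference of undivided bulge against non-bulge was 0.74 ± 0.25, with an adjusted p of 0.0690, 0.0212 with the mouse as a block, 0.0358 with the array set as a term and 0.0115 without undivided mouse 3. Within the arrays of high and low mean signal it was 1.07 and 0.57. Another Bcl2l11 probe set passed in the probe set fit for undivided (1.21 ± 0.33, adjusted p = 0.0204) and divided bulge (1.11 ± 0.33, adjusted p = 0.0455) against non-bulge at PD25, and all 4 tested probe sets were positive in both.

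Bbc3 encodes PUMA, a strong p53-induced killer, and its probe set was dim, above the array median in 6 of 18 arrays. At PD21 it gave 7.36, 6.96 and 5.15 in non-bulge, 6.14, 4.79 and 4.92 in undivided bulge and 7.03, 7.79 and 5.87 in divided bulge. Mouse 3 was low in non-bulge and divided bulge, so that all 3 fractions overlapped. Divided minus undivided bulge was 1.61 ± 0.72 at PD21 (adjusted p = 0.205), 1.94 and 0.96 within the arrays of high and low mean signal, and -1.02 ± 0.72 at PD25 (adjusted p = 0.999). The change of that contrast was -2.64 ± 1.02 (adjusted p = 0.228). From PD21 to PD25 its divided bulge level differed by -1.71 ± 0.72 (adjusted p = 0.193), with arrays that did not overlap.

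Genes around the family were counted in lists, beside the shares of all genes given above. Of 2 other survival members and 7 other BH3-only and BNIP genes tested, 0 passed in any comparison. Of 4 other family members, Bcl2l15, a little-studied relative, was lower in undivided bulge relative to non-bulge cells at PD21 (-3.64 ± 0.72, adjusted p = 0.00106) and PD25 (-3.84 ± 0.72, adjusted p = 0.000579). It was higher in divided than in undivided bulge at PD21 (3.22 ± 0.72) and fell in divided bulge from PD21 to PD25 (-2.85 ± 0.72). At PD25 it was also lower in divided bulge than in non-bulge (-2.86 ± 0.72, adjusted p = 0.0106). Its change of the division contrast between the ages was -2.24 ± 1.02 (adjusted p = 0.341). Bcl2l13, a mitochondrial relative, was lower in undivided than in non-bulge cells at PD21 (-0.77 ± 0.23), and Bok, a relative of Bax and Bak1, was higher at PD25 (1.28 ± 0.36).

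Upstream, in the death receptor list, 1 of 9 tested genes was lower in undivided than in non-bulge cells at PD21 and 2 of 9 at PD25, with 0 higher and medians of -0.81 and -0.12 beside -0.05 and -0.02 over all genes. Tnfrsf21, a death-domain receptor, differed by -2.12 ± 0.34 and -1.80 ± 0.34 (adjusted p = 9.68e-05 and 0.000621). In divided against undivided bulge at PD21 it rose by 2.09 ± 0.34, and this contrast changed between the ages by -2.24 ± 0.48 (adjusted p = 0.0177). At PD25 Tnfrsf21 was also lower in divided bulge than in non-bulge (-1.94 ± 0.34, adjusted p = 0.000362). Fas, the receptor of Fas ligand and a p53 target, was lower at PD25 in undivided (-2.40 ± 0.75) and divided bulge (-2.44 ± 0.75) than in non-bulge cells. Of 23 tested genes of the p53 list, which holds Fas too, 1 was higher and 1 lower in undivided bulge against non-bulge at PD21 and 1 higher and 2 lower at PD25, with medians of 0.02 and -0.05. Plk2, a p53-induced kinase, was the lower one at PD21 (-1.66 ± 0.36) and was lower at PD25 (-2.58 ± 0.36). Sesn1, a stress-induced p53 target, was higher at PD25 (0.80 ± 0.26). In divided bulge against non-bulge at PD25 both passed too, Plk2 at -2.07 ± 0.36 and Sesn1 at 0.91 ± 0.26. Zmat3, an RNA-binding p53 target, was lower in divided than in undivided bulge at PD21 (-1.10 ± 0.32, adjusted p = 0.0308). It was higher in divided bulge at PD25 than at PD21 (1.09 ± 0.32), and both directions were opposite to those of Pmaip1. Plk2 had the directions of Pmaip1 in both contrasts (1.74 ± 0.36 and -1.90 ± 0.36, adjusted p = 0.00244 and 0.00141). The higher one at PD21 was Phlda3 (1.26 ± 0.25, adjusted p = 0.000916), which was named after its values were seen.

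Of 17 tested inducers and turnover genes, 1 passed in undivided bulge against non-bulge at each age. This was Foxo3, a forkhead factor known to induce Bcl2l11, which was higher by 1.03 ± 0.25 at PD21 and 0.79 ± 0.25 at PD25. It was lower in divided than in undivided bulge at PD21 (-0.83 ± 0.25, adjusted p = 0.0366). At PD25 it was also higher in divided bulge than in non-bulge (1.0 ± 0.25, adjusted p = 0.00921).

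Downstream, 2 of 13 tested apoptosome and caspase genes were lower and 0 higher in undivided bulge against non-bulge at PD21, and 3 of 13 lower and 0 higher at PD25, with medians of -0.27 and -0.28. In divided against undivided bulge at PD21, 2 of 13 were higher. Casp8, the initiator caspase that cleaves BID, was lower in undivided than in non-bulge cells at PD21 (-1.25 ± 0.35, adjusted p = 0.0183), higher in divided than in undivided bulge (1.59 ± 0.35, adjusted p = 0.00347), and its contrast changed between the ages (-2.01 ± 0.49, adjusted p = 0.0400). Dffa, the inhibitor of the caspase-activated nuclease, moved the same ways at PD21 (-0.81 ± 0.21 and 0.92 ± 0.21). Dffa was also lower in undivided bulge than in non-bulge at PD25 (-0.97 ± 0.21, adjusted p = 0.00281). Casp4, an inflammatory caspase, was lower at PD25 in undivided (-4.30 ± 0.90) and divided bulge (-3.56 ± 0.90) than in non-bulge. Casp1, the caspase that activates interleukin 1 beta, was higher in divided bulge at PD25 than at PD21 (1.80 ± 0.56, adjusted p = 0.0479) and passed in no other comparison. The third lower gene at PD25 was Casp14, the epidermal caspase (-1.32 ± 0.38), named after its values were seen. Of 16 inhibitor of apoptosis genes and antagonists, Birc3 alone passed, lower in undivided than in non-bulge cells at PD21 (-1.78 ± 0.50) and higher in divided than in undivided bulge (1.69 ± 0.50). Of 15 mitochondrial partners, Hk2, a hexokinase that docks on the outer membrane, alone passed, higher in undivided than in non-bulge at PD21 (1.78 ± 0.40) and PD25 (1.98 ± 0.40).

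Genes whose signals ran most like the members that passed were taken by Pearson correlation over the 18 arrays, which share mice and array sets. For Bcl2 they were Ube2e3 (r = 0.964), Itgb6 (0.918) and Atp8a2 (0.916). Those of Pmaip1 were Arhgdib (0.940), 2610528J11Rik (0.938) and Hmgn5 (0.934), and those of Bak1 were Cdca7l (0.909), Cbs (0.849) and Dnah11 (0.830). Among the members themselves, Bcl2 and Pmaip1 had r = -0.794 and Bak1 and Pmaip1 r = 0.599 over the same arrays, as a description of groups that differ in both.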

How the data were processed

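The members and all gene and marker lists were chosen with earlier results of these data known. Each of the 18 samples was 1 Affymetrix MOE 430 2.0 array of sorted skin cells of 1 mouse, and 5 ng of RNA was amplified with Ovation chemistry, per the labels' protocols. The deposited values are linear intensity signals that the authors made with GCOS, per the submitters' processing notes, which name no version. Each array's 2% trimmed mean was 500, so no further normalisation was applied, and present calls were not used. Array medians were 60.3 to 116.6, and no arrays were duplicates (highest correlation 0.973). For arrays, their number limits the precision.

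Of 45101 probe sets, 34945 had 1 gene symbol, and Entrez identifiers matched 34741 of them to RefSeq with 0 symbols changed. Probe sets above their array's median in at least 3 arrays were kept, and the brightest by mean represented its gene. log2(signal + 16) was fitted with limma 3.58.1 in R 4.3.3 (lmFit, eBayes with trend) as 6 group means of all 18 arrays, with 12 residual and 11.2 prior degrees of freedom. Benjamini-Hochberg adjustment ran over 11569 genes, or 26938 probe sets, and 0.05 was the threshold. The code was tested on simulated data. Intervals are 95% intervals of the fit, and there were 10 comparisons.

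Mouse numbers in the titles tie the 3 fractions of an age to 1 mouse. Deviations from group means correlated at 0.075 to 0.462 within mice (median 0.198, 18 pairs) and -0.260 to 0.128 between mice (36 pairs). Taking out the mean of a group lowers the values between mice, and the array sets follow whole mice. These correlations therefore cannot show that the fractions pair by animal. The fit with the mouse as a block was an alternative, as were pseudocounts of 1 and 64, no filter, quantile normalisation, the median of a gene's probe sets, no variance trend, only the groups compared, every probe set and leaving out each array. The array set as a term, and fits within each set, were added after the data were seen. Named genes were the members and, per list, up to 4 genes that passed in the most comparisons and then had the lowest p, plus the 3 genes of highest correlation with each member that passed. Promoters are RefSeq's, of GRCm38.p6.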

Additional observations from a re-analysis of the deposited data

Results flagged for a closer look

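Pmaip1 differed between the ages in its contrast of divided with undivided bulge: divided minus undivided bulge was 4.18 ± 0.53 at PD21 and 0.31 ± 0.53 at PD25, and the limma test of the change gave -3.87 ± 0.75 (adjusted p = 0.0100). All 3 mice at PD21 had more Pmaip1 in divided than in undivided bulge, as did 2 of 3 mice at PD25. Bulge markers changed in the same contrast, with 6 of 11 higher and 0 lower (median 2.19), and their part in the Pmaip1 change was not tested. Over the alternatives, this change ranged from -5.23 to -2.76 with adjusted p from 0.00281 to 0.339.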

How the results depend on the processing

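Of 220 values of members past the threshold recomputed under alternatives, 174 kept call and direction, 43 lost the call and 3 reversed. Pmaip1 kept 107 of 113, and the 6 it lost were in fits within 1 array set. Bcl2 kept 57 of 89, and Bak1 10 of 18. These tallies are not alike, because Pmaip1 had 1 probe set. The median of probe sets could not change its differences, and no second probe set could be tested. The reversed values were those of Bcl2 with the median of a gene's probe sets: -0.17 for undivided bulge against non-bulge at PD21, -0.16 for divided bulge against non-bulge at PD25 and -0.36 between the ages in divided bulge. On each array this median was the middle of 5 Bcl2 signals, which was not always the same probe set. Taken singly, 4, 4 and 5 of the 5 probe sets were positive in these comparisons. Of 1244 values of members not past the threshold, 12 gained a call and 96 changed sign without one.

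The count of members past the threshold fell in undivided bulge against non-bulge at PD21 from 3 to 1 within the low-mean arrays, and to 2 with the median of probe sets (Bcl2 lost), with only the groups compared and within the high-mean arrays (Bak1 lost in both). At PD25 it fell from 2 to 1 with the median of probe sets, without the variance trend and with only the groups compared, and to 0 within the high-mean arrays. In divided bulge against non-bulge at PD25 it fell from 2 to 1 under these 3 settings, without the filter and with every probe set, and to 0 within the high-mean arrays. In divided against undivided bulge at PD21 it fell to 1 within the low-mean arrays, and it stayed at 2 with the median of probe sets and without the variance trend because Bcl2 lost its call and Bak1 gained one. Between the ages in divided bulge it fell to 1 with the median of probe sets and within the high-mean arrays and to 0 within the low-mean arrays. The change of the division contrast had 2 members with the mouse as a replicate block and 0 within each array set. Sets hold fewer samples, and the cause of the other changes was not tested. Shares of all genes under these settings, or with 1 array left out, are not given here. The counts therefore do not show whether members lost more calls than genes in general. The block gave calls also to Bid, Bcl2l11 and Bak1, and to Bcl2 in the change of the division contrast, all named above. It changed no other call of a member. No paired analysis was possible between the ages because the mice differ.

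Leaving out 1 array gave 1 to 3 members in undivided bulge against non-bulge at each age and in divided against undivided bulge at PD21, 1 to 2 in divided bulge against non-bulge at PD25 and between the ages in divided bulge, 1 throughout for the change of the division contrast, and 0 elsewhere. Dim probe sets, here Pmaip1 in its low groups, Bbc3 and Bid, limit what can be measured.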
